A study of Mus musculus with 16 samples.

Results

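Axon guidance ligands and receptors are the secreted and membrane-bound cues that steer growing axons, and the surface proteins through which neurons read them. The genes described here are the protein-coding rows whose GENCODE symbol marks a semaphorin, plexin, neuropilin, ephrin, Eph receptor, Slit, Robo, netrin, Dcc or Unc5 gene and that had at least 10 counts in at least 4 of the 16 libraries. Of 55335 gene IDs in the count table, 71 had such a symbol and 66 met the count rule. They comprised 34 ligands, 31 receptors and Unc50. Unc50 shares the first letters of the Unc5 symbols but is a Golgi protein, known from Caenorhabditis elegans for the trafficking of acetylcholine receptors, and is kept only because the symbol rule takes it. The 5 genes under the count rule were Epha1, Ntn5, Plxnb3, Robo4 and Unc5cl. All 66 members passed the expression filter of the fit, together with 19479 genes in all.

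The libraries came from mouse primary forebrain neurons, cultured from perinatal animals and transduced with lentiviral vectors. There were 4 groups of 4 libraries: an empty vector, a vector with a short hairpin RNA (the unmutated hairpin), and vectors with that hairpin carrying 2 or 5 point mutations (the 2-mutation and 5-mutation hairpins). A short hairpin RNA is cut by the cell's microRNA machinery into a small RNA that lowers transcripts to which it pairs. Neither the intended target of the hairpin nor its sequence is given in the sources used here, and no genotype, strain or animal number is given. The labelled difference between the groups is the insert of the lentiviral vector. Whether the groups shared animals, cultures or a transduction batch is not stated. Nothing says that the 4 libraries of a group were separate cultures, so the p-values measure the spread between these libraries, which may be technical.

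The set is made up of 4 systems of cue and receptor. Semaphorins act mostly as repellents. Class 3 members are secreted and bind neuropilins that signal through A plexins, whereas classes 4 to 7 are membrane-anchored and bind plexins directly. Ephrins are membrane-bound ligands of the Eph receptor tyrosine kinases: ephrin-A proteins hang on a lipid anchor, ephrin-B proteins span the membrane, and contact between cells can pass signals both ways. Slits are secreted repellents read by Robo receptors, best known for keeping axons from recrossing the midline. Netrins attract axons through Dcc and repel them where Unc5 receptors are present. In the developing forebrain the same proteins also guide migrating neurons and shape synapses.

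The Slit genes also carry a small RNA. Mir218-1 lies in intron 14 of the Slit2 transcript of 36 exons (hairpin at chr5:48223942-48224051, plus strand, GRCm38.p6) and Mir218-2 in intron 14 of the Slit3 transcript, also of 36 exons (chr11:35616816-35616925, plus strand). Neither hairpin overlaps an exon. Both give the same mature RNA in the RefSeq table, shown here 5′ to 3′ because its host genes moved in these libraries and because its seed has matches in the Robo transcripts. Capitals mark the seed, bases 2 to 8.
mmu-miR-218-5p: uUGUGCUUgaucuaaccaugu
The reverse complement of the seed, AAGCACA, was searched on the transcript strand of the 3′ UTR of each member's GENCODE vM21 transcript. Every Robo member held a match, Robo2 a pair of them, in the order in which they occur in its UTR. The sites are printed with their flanks, with the match in capitals, for Robo1 (chr16:73045337-73045358, plus strand), Robo2 (chr16:73895355-73895376 and chr16:73893029-73893050, minus strand) and Robo3 (chr9:37416241-37416262, minus strand).
Robo1 site: tttggttttaaAAGCACAatca
Robo2 first site: tatttggtgatAAGCACAaatc
Robo2 second site: acggcagacccAAGCACAgctt
Robo3 site: gtgactcactgAAGCACActgt
At least 1 match was present in 20 of the 66 members (30.3%), and in 2304 of 14295 genes with a 3′ UTR of at least 50 bases (16.1%). The members' UTRs were longer, with a median of 1681 bases against 1221. Slit2 held 2 matches and Slit1 and Slit3 none. A match describes these letters only, and the mature RNA was not measured here.

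Depth per library was 33795369 to 46187568 counts for the empty vector, 36143806 to 41152791 for the unmutated, 41618901 to 49824569 for the 2-mutation and 35521472 to 47401867 for the 5-mutation hairpin. Neuronal identity was checked with 8 general neuronal markers, whose summed level was 4810 to 5899 CPM (TMM-scaled counts-per-million) over all libraries. Single markers moved within that sum: 6 of 8 fell with the unmutated hairpin, 2 rose and 4 fell with the 2-mutation hairpin, and 2 rose and 3 fell with the 5-mutation hairpin, where Rbfox3 was at 31.3 CPM against 150 with the empty vector and Elavl3 at 165 against 339. Lists of other cell types moved with the groups. Inhibitory neuron markers (10 genes) summed to 736 to 830 CPM with the empty vector, 175 to 323 with the unmutated hairpin, 228 to 331 with the 2-mutation hairpin and 305 to 413 with the 5-mutation hairpin. Among these 10, 9 fell and none rose with the unmutated hairpin and again with the 5-mutation hairpin. With the 2-mutation hairpin 7 fell and 2 rose. By group means Dlx2 was there at 8.21 CPM against 3.98 with the empty vector, Dlx5 at 7.55 against 4.75 and Lhx6 at 34.8 against 29.6. Excitatory neuron markers (10 genes) summed to 1913 to 2219 CPM in the first 3 groups and to 1160 to 1244 with the 5-mutation hairpin. Slc17a7 had a mean of 81.7 CPM there against 612 with the empty vector, and Camk2a one of 431 against 807. Slc17a6 went the other way, at 81.4 against 26.5 CPM. Within the steadier sum of the 2-mutation libraries, Camk2a had a mean of 383 CPM and Slc17a6 of 138. Of the 10 excitatory markers, 4 rose and 4 fell under the unmutated hairpin. Under 2 mutations 5 rose and 2 fell, and under 5 mutations 1 rose and 5 fell. Astrocyte markers (10 genes) summed to 965 to 1194, 738 to 1075, 736 to 931 and 483 to 695 CPM in the same order of groups. By group means Slc1a2 made up most of that sum, and the other 9 summed to 279 to 440, 307 to 539, 197 to 338 and 115 to 284 CPM. Of the 10, none rose with any hairpin, while 2 fell with the unmutated (Slc1a2 and Aldoc), 6 with the 2-mutation hairpin and 3 under the 5-mutation hairpin. Markers of progenitors and dividing cells (8 genes) summed to 56.8 to 165 CPM outside the 2-mutation libraries and to 222 to 327 in them. By group means Vim (170.8 CPM) and Nes (65.24 CPM) made up most of the 2-mutation sum. There Mki67 and Cdk1, genes of dividing cells, lay below their empty vector means, and Top2a above. All 3 had their highest group mean with the 5-mutation hairpin, of at most 3.687 CPM (Top2a). Of the 8, 3 rose with each hairpin, and 2 fell with the 5-mutation hairpin only. Oligodendrocyte lineage markers (10 genes) summed to 59.1 to 71.3 CPM with the empty vector and 86.8 to 106 with the unmutated hairpin. They summed to 55.1 to 62.5 CPM with the 2-mutation and 88.1 to 107 with the 5-mutation hairpin. Of 7 that could be tested, 4 rose and none fell with the unmutated, 1 rose and 2 fell with the 2-mutation, and 2 rose and 2 fell with the 5-mutation hairpin. Mbp had a mean of 68.5 CPM with the 5-mutation hairpin against 25.8 with the empty vector. Gpr17 was at 0 in every library of the empty vector and of the 2-mutation hairpin. Mural and fibroblast markers (8 genes) were at 26.2 to 56.4 CPM in the first 3 groups, and at 29.6, 34.2, 187 and 49.8 CPM with the 5-mutation hairpin, where library 3 stood apart. Without that library the same 27 members were called higher and the same 20 lower with the 5-mutation hairpin than with the empty vector. Of 10 microglial markers 8 or 9 had a group mean under 1 CPM, as did 7 or 8 of 8 endothelial markers. The part of these shifts in the results below was not tested, and in bulk RNA fewer cells of a type cannot be told apart from less RNA per cell.

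The members took 0.530% ± 0.0139 of all counts with the empty vector (SD, n = 4), 0.507% ± 0.0191 with the unmutated hairpin, 0.438% ± 0.0119 with the 2-mutation hairpin and 0.561% ± 0.0164 with the 5-mutation hairpin. All counts include those of the single gene Gm26917, whose share also differed between groups. It took 5.85% to 6.34%, 7.37% to 8.02%, 10.9% to 11.5% and 7.99% to 9.16% in the same order. Levels between genes are compared per length, as CPM per kilobase of annotated exon (FPKM). By the mean of all libraries, the member with the highest level was Efnb3 at 68.5 FPKM, followed by Plxna1 at 41.5, Sema6b at 34.6, Plxna4 at 32.8, Slit1 at 27.5, Epha4 at 26.5 and Unc5a at 25.8. The lowest levels were those of Sema3g at 0.0392 FPKM, Sema3b at 0.164 and Robo3 at 0.179. Exons of 13 members (Efna3, Efna4, Epha10, Epha6, Ephb1, Ephb4, Ntn3, Plxna1, Plxna4, Plxnb1, Sema4c, Unc5a and Unc5c) overlap a gene on the other strand, and those of Nrp1, Ntn3, Plxnc1 and Sema4a a gene on their own. The strand setting of the counting is not stated, so reads of the overlapped stretches cannot be told apart. Many of these genes are long: the members' median span was 62798.5 bases, against 25769 bases for 14527 protein-coding genes with the same minimum of counts, and 32 members spanned over 100000 bases, as did 15.9% of those genes.

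Most members moved, and they did not move one way. With the unmutated hairpin, 14 of the 66 members were higher and 29 lower than with the empty vector at an adjusted p below 0.05. Of all 19479 genes tested, 20.8% were higher and 19.5% lower. Called members were 65.2% of the set, compared with 40.3% of all genes and 48.7% of protein-coding genes. With the 2-mutation hairpin 17 of the 66 were higher and 34 lower, where 32.5% and 30.8% of all genes were. Called members were 77.3% of the set, against 63.3% of all genes and 72.4% of protein-coding genes. With the 5-mutation hairpin 27 of the 66 were higher and 20 lower, where 28.4% and 26.5% of all genes were. Here 71.2% of members were called, against 54.9% of all genes and 64.3% of protein-coding genes. The members' shares lay above those of protein-coding genes by less with the 2 mutated hairpins than with the unmutated one. For the unmutated, 2-mutation and 5-mutation hairpins the members' median log2 fold changes were −0.10, −0.21 and 0.01, where all genes had medians of 0.01, −0.01 and 0.03. Changes of more than 2-fold that passed the test were found in 3, 12 and 13 of the 66 members, and in 5.16%, 16.3% and 12.3% of all genes.

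**Figure D1:**
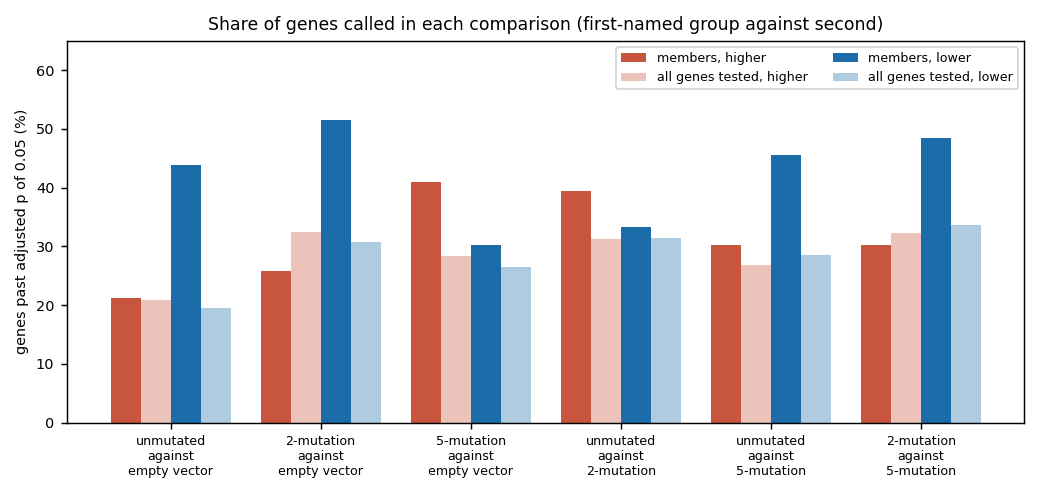
Share (%) of the 66 members (dark bars) and of all genes tested (pale bars) called higher or lower at an adjusted p below 0.05 in each of the 6 comparisons of 2 groups. Members called lower stand well above the pale bars with the unmutated (29 of 66) and 2-mutation (34 of 66) hairpins, and members called higher do so with the 5-mutation hairpin (27 of 66).

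Calls in both directions were found among ligands and among receptors. Of 34 ligands 4 rose and 16 fell with the unmutated hairpin, while 9 of 31 receptors rose and 13 fell. The 2-mutation hairpin had 7 ligands higher and 18 lower, and 9 receptors higher and 16 lower. For the 5-mutation hairpin the counts were 13 and 11 among ligands and 14 and 9 among receptors. Of all genes, 20.8% rose and 19.5% fell with the unmutated, 32.5% and 30.8% with the 2-mutation, and 28.4% and 26.5% with the 5-mutation hairpin. The family counts below stand beside the same shares, and no family was tested as a set. The 3 comparisons with the empty vector share its 4 libraries. The hairpins were therefore also compared with each other, where 26 members were higher and 22 lower with the unmutated than with the 2-mutation hairpin (31.2% and 31.5% of all genes). Against the 5-mutation hairpin the unmutated hairpin had 20 members higher and 30 lower (26.8% and 28.5% of all genes). The 2-mutation hairpin had 20 members higher and 32 lower than the 5-mutation hairpin (32.3% and 33.6% of all genes). In either direction, 72.7%, 75.8% and 78.8% of members were called in these comparisons, against 62.7%, 55.3% and 65.9% of all genes and 72.8%, 64.9% and 74.6% of protein-coding genes.

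**Figure D2:**
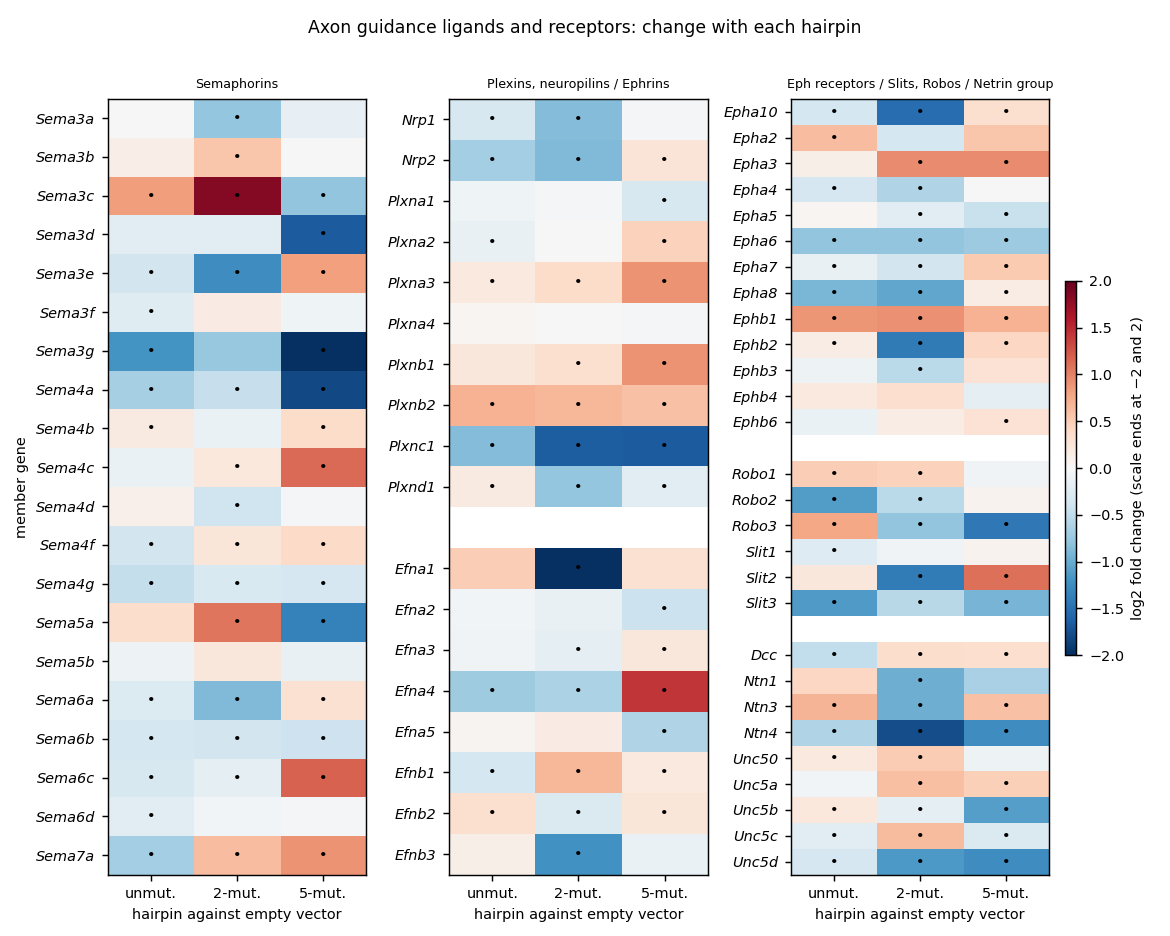
Log2 fold change against the empty vector for each of the 66 members (rows, by family) with the unmutated, 2-mutation and 5-mutation hairpins (columns); red is higher, blue lower, and a dot marks an adjusted p below 0.05. Only Ephb1, Plxna3 and Plxnb2 are red with a dot in all 3 columns, 8 members are blue with a dot in all 3, and 24 carry dots of both colours.

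The Slit ligands went separate ways. Slit1 (ENSMUSG00000025020.11, chr19:41600257-41743665, minus strand, GRCm38) had the highest level of the 3, at 27.5 FPKM, before Slit3 (ENSMUSG00000056427.10, chr11:35121224-35708507, plus strand) at 9.74 and Slit2 (ENSMUSG00000031558.15, chr5:47983138-48307733, plus strand) at 3.63. Slit2 was at 70.7, 80.1, 82.0 and 81.1 CPM with the empty vector and at 78.7, 74.6, 127 and 87.2 with the unmutated hairpin. Slit2 gave 27.5, 27.2, 33.3 and 31.4 CPM with the 2-mutation hairpin and 178, 172, 175 and 151 with the 5-mutation hairpin. The 2-mutation libraries were the lowest and the 5-mutation libraries the highest of all 16, with no overlap with any other group. Slit2 fell 2.63-fold with the 2-mutation hairpin (log2 fold change −1.40 ± 0.14, adjusted p = 9.27e-07) and rose 2.15-fold with the 5-mutation hairpin (1.11 ± 0.14, adjusted p = 8.82e-06). Here and below a value after ± beside a fold change is the standard error of the fit, and adjusted p-values are from edgeR's quasi-likelihood test over all genes. Between those 2 hairpins it differed 5.66-fold (adjusted p = 1.27e-09). With the unmutated hairpin 1 library at 127 CPM stood above the others and the change did not pass the test (0.23 ± 0.14, adjusted p = 0.222).

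Slit3 was at 84.2, 85.3, 93.9 and 91.7 CPM with the empty vector and at 39.3, 39.4, 41.8 and 40.9 with the unmutated hairpin. Slit3 gave 63.7, 55.1, 54.2 and 69.3 CPM with the 2-mutation hairpin and 42.2, 48.4, 46.3 and 49.7 with the 5-mutation hairpin. Every hairpin library was below every empty vector library. Slit3 fell with each hairpin, by log2 fold changes of −1.14 ± 0.07, −0.55 ± 0.07 and −0.93 ± 0.07 for the unmutated, 2-mutation and 5-mutation hairpins, with adjusted p-values of 3.68e-11, 3.19e-07 and 2.15e-10. The fall with the unmutated hairpin was larger than that with the 2-mutation hairpin (difference −0.59 ± 0.07, adjusted p = 1.71e-07). Slit1 was at 155, 164, 174 and 187 CPM with the empty vector and at 143, 136, 148 and 144 with the unmutated hairpin. Slit1 gave 161, 152, 161 and 171 CPM with the 2-mutation hairpin and 176, 173, 189 and 174 with the 5-mutation hairpin. Only the unmutated libraries of Slit1 lay wholly below those of the empty vector, and their fall was small (−0.26 ± 0.05, adjusted p = 0.000385). The other hairpins gave log2 fold changes of −0.08 ± 0.05 and 0.06 ± 0.05, which did not pass the test.

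Among the Slit receptors, Robo1 (ENSMUSG00000022883.11, chr16:72308306-73046095, plus strand) and Robo2 (ENSMUSG00000052516.19, chr16:73891839-74411825, minus strand) are the main Slit receptors of forebrain neurons and stood at similar levels per length, 8.45 and 7.94 FPKM. Robo1 was at 102, 125, 119 and 126 CPM with the empty vector and at 150.2, 172, 177 and 164 with the unmutated hairpin. Robo1 gave 165, 162, 156 and 165 CPM with the 2-mutation hairpin and 104, 117, 113 and 114 with the 5-mutation hairpin. Both the unmutated and the 2-mutation libraries were above all others, while the 5-mutation libraries overlapped those of the empty vector. Robo1 rose by log2 fold changes of 0.49 ± 0.06, adjusted p = 6.25e-07, and 0.46 ± 0.06, adjusted p = 5.16e-07, and stood at −0.07 ± 0.06, adjusted p = 0.308 with the 5-mutation hairpin. Robo2 was at 183, 158, 175 and 158 CPM with the empty vector and at 72.3, 72.1, 94.0 and 73.7 with the unmutated hairpin. Robo2 gave 118, 108, 121 and 114 CPM with the 2-mutation hairpin and 170.2, 194, 173 and 172 with the 5-mutation hairpin. Robo2 showed the opposite order: lowest with the unmutated hairpin, intermediate with the 2-mutation hairpin and overlapping the empty vector with the 5-mutation hairpin. The 2-mutation hairpin lowered it by −0.55 ± 0.08, adjusted p = 3.61e-06, less than the unmutated hairpin did (difference −0.56 ± 0.08, adjusted p = 2.68e-06). The 5-mutation hairpin gave 0.07 ± 0.07, adjusted p = 0.43. One unmutated library at 94.0 CPM and one 5-mutation library at 194 CPM stood apart from the rest of their groups.

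Robo3 (ENSMUSG00000032128.15, chr9:37415669-37433246, minus strand), known from commissural axons, was near the floor of the set at 0.179 FPKM, with 17 to 98 counts per library. Robo3 was at 1.44, 1.04, 1.39 and 1.46 CPM with the empty vector and at 2.29, 2.03, 2.51 and 2.30 with the unmutated hairpin. Robo3 gave 0.960, 0.744, 0.635 and 0.752 CPM with the 2-mutation hairpin and 0.370, 0.412, 0.723 and 0.510 with the 5-mutation hairpin. The unmutated libraries were the highest, and both mutated groups lay below the empty vector. Robo3 rose with the unmutated hairpin (0.77 ± 0.19, adjusted p = 0.00197) and fell with the 2-mutation (−0.79 ± 0.20, adjusted p = 0.00171) and 5-mutation hairpins (−1.43 ± 0.21, adjusted p = 5.76e-06). It therefore differed 4.59-fold between the unmutated and 5-mutation hairpins. Under the unmutated hairpin, Robo1 and Robo3 rose while Robo2, Slit1 and Slit3 fell. Under the 5-mutation hairpin the largest Slit and Robo changes were those of Slit2 and Robo3, in opposite directions.

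**Figure D3:**
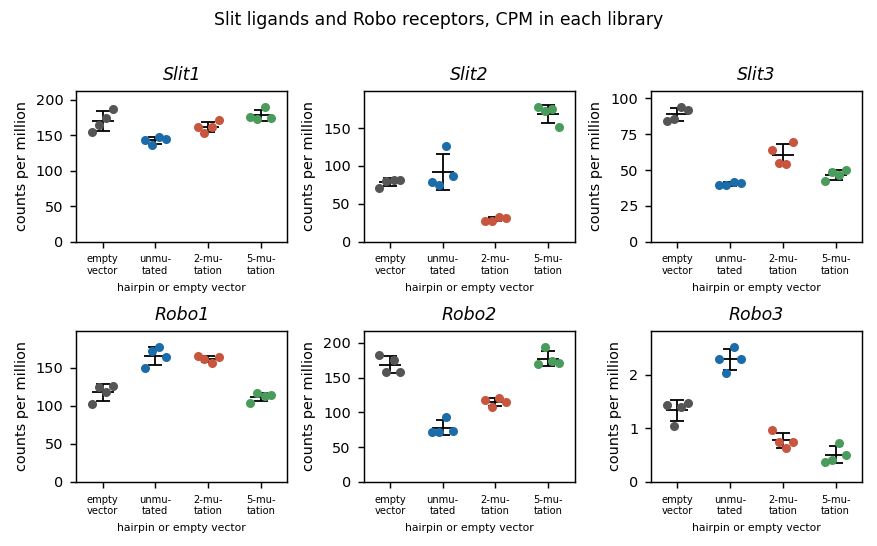
CPM (TMM-scaled, vertical axis from 0) of the 3 Slit ligands and 3 Robo receptors in each library (points), with the group mean and SD (bars, n = 4). Slit2 lies between 27.2 and 33.3 with the 2-mutation hairpin and between 151 and 178 with the 5-mutation hairpin, Slit3 is below the empty vector in every hairpin library, and Robo1 and Robo2 are displaced in opposite directions with the unmutated and 2-mutation hairpins.

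Of the 7 secreted class 3 semaphorins, 1 rose and 3 fell with the unmutated hairpin, 2 rose and 2 fell with the 2-mutation hairpin, and 1 rose and 3 fell with the 5-mutation hairpin. Sema3c (ENSMUSG00000028780.13, chr5:17574281-17730268, plus strand), a ligand of both neuropilins, had the highest level per length of the class at 4.43 FPKM and the largest rise of any member against the empty vector. Sema3c was at 15.5, 20.6, 18.9 and 18.1 CPM with the empty vector and at 27.1, 35.2, 35.3 and 32.9 with the unmutated hairpin. Sema3c gave 65.2, 59.5, 70.9 and 64.5 CPM with the 2-mutation hairpin and 9.91, 11.3, 10.3 and 10.6 with the 5-mutation hairpin. No group overlapped another. Sema3c rose 1.78-fold with the unmutated hairpin (0.84 ± 0.09, adjusted p = 1.51e-07) and 3.56-fold with the 2-mutation hairpin (1.83 ± 0.08, adjusted p = 2.05e-13), and fell 1.73-fold with the 5-mutation hairpin (−0.79 ± 0.09, adjusted p = 3.01e-07). The mutated hairpins differed 6.16-fold from each other (adjusted p = 9.89e-16).

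Sema3e (ENSMUSG00000063531.7, chr5:14025276-14256689, plus strand) binds Plxnd1 without a neuropilin, and its order was the reverse. Sema3e was at 21.1, 19.8, 20.1 and 18.8 CPM with the empty vector and at 14.3, 14.0, 18.0 and 15.5 with the unmutated hairpin. Sema3e gave 7.98, 8.19, 8.96 and 8.65 CPM with the 2-mutation hairpin and 42.4, 26.8, 38.3 and 33.3 with the 5-mutation hairpin. Each hairpin group stood clear of the empty vector, the 2-mutation libraries lowest and the 5-mutation libraries highest. Sema3e fell with the unmutated (−0.37 ± 0.11, adjusted p = 0.0136) and 2-mutation hairpins (−1.24 ± 0.12, adjusted p = 2.88e-08) and rose with the 5-mutation hairpin (0.82 ± 0.11, adjusted p = 3.56e-06). Sema3d was at 3.62, 6.01, 5.30 and 5.49 CPM with the empty vector and at 2.96, 4.75, 4.74 and 4.92 with the unmutated hairpin. Sema3d gave 4.18, 4.12, 4.35 and 4.92 CPM with the 2-mutation hairpin and 1.11, 1.96, 1.67 and 1.68 with the 5-mutation hairpin. Sema3d, another secreted member, was lower than in every other library with the 5-mutation hairpin (−1.67 ± 0.18, adjusted p = 9.92e-08) and gave −0.23 ± 0.17 and −0.22 ± 0.17 with the others, which did not pass. Its library 1 was the lowest of the 4 in the empty vector, unmutated and 5-mutation groups. Sema3a, the best-known repellent of cortical axons, was chosen here as the reference ligand of Nrp1. It fell with the 2-mutation hairpin, from 49.4 ± 2.27 to 28.8 ± 1.68 CPM (SD, n = 4; −0.78 ± 0.09, adjusted p = 2.76e-07), and the changes with the unmutated (−0.00 ± 0.09) and 5-mutation hairpins (−0.17 ± 0.09) did not pass. Sema3b, Sema3f and Sema3g are the other secreted members, and Sema3g had only 1 to 17 counts per library. Sema3g met the count rule only through empty vector libraries 1, 3 and 4 (13, 17 and 11 counts) and 2-mutation library 2 (15 counts). The rule thus favoured a fall of Sema3g from the empty vector, and its call with the unmutated hairpin is included in the counts of fallen members.

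The 6 class 4 semaphorins span the membrane. Of these, 1 rose and 3 fell with the unmutated hairpin, 2 rose and 3 fell with the 2-mutation hairpin, and 3 rose and 2 fell with the 5-mutation hairpin. Sema4a was at 35.7, 40.5, 39.7 and 36.3 CPM with the empty vector and at 22.9, 23.6, 25.9 and 23.1 with the unmutated hairpin. Sema4a gave 26.1, 29.1, 29.6 and 25.5 CPM with the 2-mutation hairpin and 10.7, 12.5, 11.2 and 9.10 with the 5-mutation hairpin. Sema4a (ENSMUSG00000028064.17, chr3:88435959-88461182, minus strand) was lower in every hairpin library than in every empty vector library, and lowest with the 5-mutation hairpin. In that order of hairpins it fell by −0.67 ± 0.07, −0.47 ± 0.07 and −1.80 ± 0.08 (adjusted p = 2.04e-07, 8.74e-06 and 1.9e-14). Sema4c was at 20.7, 23.3, 23.9 and 23.3 CPM with the empty vector and at 22.4, 19.0, 20.7 and 20.9 with the unmutated hairpin. Sema4c gave 28.0, 24.4, 26.1 and 27.5 CPM with the 2-mutation hairpin and 49.6, 48.4, 51.1 and 50.8 with the 5-mutation hairpin. Sema4c, a ligand of Plxnb2, stood above all other libraries with the 5-mutation hairpin, where it rose 2.19-fold (1.13 ± 0.06, adjusted p = 1.97e-13). Its rise with the 2-mutation hairpin was small (0.22 ± 0.06, adjusted p = 0.00232). Sema4f was at 67.1, 71.8, 72.5 and 75.5 CPM with the empty vector and at 57.9, 52.1, 56.9 and 56.4 with the unmutated hairpin. Sema4f gave 85.0, 82.6, 85.9 and 87.3 CPM with the 2-mutation hairpin and 89.0, 91.2, 94.1 and 99.6 with the 5-mutation hairpin. Sema4f, the class 4 member with the highest level at 14.5 FPKM, was below the empty vector in all unmutated libraries and above it in all mutated ones (−0.36 ± 0.05, 0.25 ± 0.05 and 0.38 ± 0.05, all past the test). Sema4g fell with all 3 hairpins, by −0.47 ± 0.04, −0.30 ± 0.04 and −0.33 ± 0.04 (adjusted p = 1.32e-08, 2.72e-06 and 9.61e-07).

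In class 5, whose members carry thrombospondin repeats, Sema5a (ENSMUSG00000022231.10, chr15:32244810-32696341, plus strand) moved and Sema5b did not pass any test. Sema5a was at 17.6, 28.3, 23.6 and 24.6 CPM with the empty vector and at 21.4, 32.6, 32.9 and 32.8 with the unmutated hairpin. Sema5a gave 44.9, 47.8, 49.7 and 55.2 CPM with the 2-mutation hairpin and 8.80, 10.9, 9.31 and 7.65 with the 5-mutation hairpin. The 2-mutation libraries were the highest and the 5-mutation libraries the lowest, both clear of the empty vector, while the unmutated libraries overlapped it. Sema5a rose 2.10-fold with the 2-mutation hairpin (1.07 ± 0.15, adjusted p = 2.38e-05) and fell 2.56-fold with the 5-mutation hairpin (−1.35 ± 0.17, adjusted p = 7.05e-06). Its change with the unmutated hairpin was 0.35 ± 0.16, adjusted p = 0.0922, and library 1 of that group, at 21.4 CPM, was far below the other 3. Between the mutated hairpins Sema5a differed 5.37-fold (adjusted p = 5.55e-09), the same order as Sema3c.

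All 4 class 6 semaphorins, transmembrane ligands of the A plexins, fell with the unmutated hairpin, where 19.5% of all genes fell. The log2 fold changes were small (−0.22 to −0.35), and the unmutated libraries of Sema6a and Sema6d overlapped those of the empty vector. With the 2-mutation hairpin 3 fell, and with the 5-mutation hairpin 2 rose and 1 fell. Sema6b was at 157, 163, 167 and 177 CPM with the empty vector and at 134, 129, 126 and 130.4 with the unmutated hairpin. Sema6b gave 129, 127, 127 and 133 CPM with the 2-mutation hairpin and 124, 118, 131 and 125 with the 5-mutation hairpin. Sema6b, the semaphorin with the highest level at 34.6 FPKM, was lower in all 12 hairpin libraries than in any empty vector library. Its falls were alike in size, −0.35 ± 0.04, −0.36 ± 0.04 and −0.42 ± 0.04 (adjusted p = 6.55e-07, 1.15e-07 and 2.15e-08), and the differences between hairpins were 0.01 ± 0.04, 0.06 ± 0.04 and 0.05 ± 0.04. Sema6c was at 29.7, 26.4, 27.9 and 26.6 CPM with the empty vector and at 23.8, 21.9, 22.5 and 20.3 with the unmutated hairpin. Sema6c gave 24.7, 23.7, 25.8 and 23.9 CPM with the 2-mutation hairpin and 60.6, 59.5, 64.8 and 65.8 with the 5-mutation hairpin. Sema6c (ENSMUSG00000038777.19, chr3:95160457-95174024, plus strand) fell a little with the unmutated (−0.32 ± 0.06, adjusted p = 6.39e-05) and 2-mutation hairpins (−0.17 ± 0.05, adjusted p = 0.00861) and was 2.27-fold higher with the 5-mutation hairpin (1.18 ± 0.05, adjusted p = 3.33e-14), far above all other libraries. Sema6a fell with the 2-mutation hairpin (−0.88 ± 0.07, adjusted p = 1.57e-10) and rose with the 5-mutation hairpin (0.30 ± 0.06, adjusted p = 0.000444).

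Sema7a (ENSMUSG00000038264.8, chr9:57940112-57962865, plus strand), the lipid-anchored semaphorin that binds Plxnc1 and integrins, stood at 18.6 FPKM. Sema7a was at 57.2, 43.7, 47.6 and 47.0 CPM with the empty vector and at 38.2, 26.5, 32.1 and 24.8 with the unmutated hairpin. Sema7a gave 84.1, 64.5, 72.5 and 79.4 CPM with the 2-mutation hairpin and 104, 76.8, 98.3 and 84.7 with the 5-mutation hairpin. The unmutated libraries lay below and the mutated libraries above those of the empty vector, without overlap. Sema7a fell with the unmutated hairpin (−0.69 ± 0.14, adjusted p = 0.00152) and rose with the 2-mutation (0.62 ± 0.14, adjusted p = 0.00128) and 5-mutation hairpins (0.90 ± 0.14, adjusted p = 7.04e-05). Its level was 2.99-fold lower with the unmutated than with the 5-mutation hairpin. Its receptor Plxnc1 was at 227, 276, 281 and 277 CPM with the empty vector and at 129, 156, 137 and 158 with the unmutated hairpin. Plxnc1 gave 85.5, 79.0, 85.2 and 87.1 CPM with the 2-mutation hairpin and 71.8, 87.9, 76.3 and 98.7 with the 5-mutation hairpin. Plxnc1 (ENSMUSG00000074785.5, chr10:94790866-94944835, minus strand) was lower in every hairpin library than in the empty vector libraries, of which library 1 at 227 CPM was the lowest. It fell 1.83-fold with the unmutated (−0.87 ± 0.09, adjusted p = 1.42e-06), 3.15-fold with the 2-mutation (−1.66 ± 0.10, adjusted p = 1.62e-10) and 3.17-fold with the 5-mutation hairpin (−1.67 ± 0.10, adjusted p = 2.51e-10). Ligand and receptor thus fell together with the unmutated hairpin and moved in opposite directions with both mutated hairpins.

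The A plexins are the signalling partners of neuropilins and the receptors of class 6 semaphorins, and Plxna1 and Plxna4 were among the members with the highest levels. Plxna1 was at 385, 375, 423 and 428 CPM with the empty vector and at 384, 356, 365 and 409.8 with the unmutated hairpin. Plxna1 gave 408, 359, 405 and 413 CPM with the 2-mutation hairpin and 322, 308, 336 and 331 with the 5-mutation hairpin. Only the 5-mutation libraries of Plxna1 fell below the empty vector (−0.31 ± 0.05, adjusted p = 4.19e-05). The log2 fold changes with the unmutated (−0.09 ± 0.05) and 2-mutation hairpins (−0.02 ± 0.05) did not pass. Plxna3 was at 67.4, 66.5, 67.1 and 67.2 CPM with the empty vector and at 76.7, 76.6, 76.0 and 76.9 with the unmutated hairpin. Plxna3 gave 84.3, 83.6, 90.5 and 86.0 CPM with the 2-mutation hairpin and 120.3, 134, 124 and 122 with the 5-mutation hairpin. Plxna3 (ENSMUSG00000031398.13, chrX:74329066-74344689, plus strand) rose with each hairpin, without overlap with the empty vector, and the standing order of the hairpins was unmutated, 2-mutation, 5-mutation. The rises were 0.19 ± 0.04, 0.36 ± 0.04 and 0.90 ± 0.04 (adjusted p = 0.000497, 4.58e-08 and 2.08e-14), and each pair of hairpins also differed (adjusted p of at most 0.000673). Plxna2 rose with the 5-mutation hairpin (0.46 ± 0.04, adjusted p = 3.25e-09) and fell a little with the unmutated hairpin (−0.16 ± 0.04, adjusted p = 0.0044). Plxna4 was one of 3 members with no call in any of the 6 comparisons, and its log2 fold changes against the empty vector were 0.04 ± 0.06, −0.01 ± 0.06 and −0.03 ± 0.06.

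Both B plexins, receptors of class 4 semaphorins, rose with the 2-mutation and 5-mutation hairpins, where 32.5% and 28.4% of all genes rose. Plxnb2 was at 66.0, 69.6, 67.0 and 79.3 CPM with the empty vector and at 108, 110.3, 108 and 129.8 with the unmutated hairpin. Plxnb2 gave 109.7, 107, 109 and 122 CPM with the 2-mutation hairpin and 106, 98.6, 114 and 105 with the 5-mutation hairpin. Plxnb2 (ENSMUSG00000036606.17, chr15:89155549-89180788, minus strand) was higher in all 12 hairpin libraries than in any empty vector library, by 0.69 ± 0.07, 0.67 ± 0.07 and 0.58 ± 0.07 (adjusted p = 4.6e-08, 1.9e-08 and 2.04e-07). Library 4 was the highest of its group with the unmutated hairpin, at 129.8 CPM, and with the 2-mutation hairpin, at 122 CPM. The hairpins differed from each other by at most 0.11 ± 0.07, which did not pass the test. Plxnb1 was at 20.8, 23.8, 21.4 and 27.8 CPM with the empty vector and at 26.5, 26.8, 24.0 and 32.0 with the unmutated hairpin. Plxnb1 gave 28.3, 26.5, 29.4 and 32.3 CPM with the 2-mutation hairpin and 41.5, 42.6, 45.8 and 45.5 with the 5-mutation hairpin. Plxnb1, the receptor of Sema4d, was clear of the empty vector with the 5-mutation hairpin only (0.90 ± 0.09, adjusted p = 7.47e-08). It also passed the test with the 2-mutation hairpin, with overlapping libraries (0.31 ± 0.09, adjusted p = 0.0057), and gave 0.22 ± 0.09, adjusted p = 0.0634 with the unmutated hairpin. Its ligand Sema4d fell with the 2-mutation hairpin (−0.40 ± 0.05, adjusted p = 6.93e-08) and gave −0.02 ± 0.05 with the 5-mutation hairpin, which did not pass.

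Plxnd1 was at 145, 127, 146 and 141 CPM with the empty vector and at 169, 158, 148 and 160.2 with the unmutated hairpin. Plxnd1 gave 82.4, 76.0, 82.3 and 87.5 CPM with the 2-mutation hairpin and 121, 122, 117 and 118 with the 5-mutation hairpin. Plxnd1, the receptor of Sema3e, was highest with the unmutated hairpin and lowest with the 2-mutation hairpin, with no overlap between any of the groups. It rose by 0.18 ± 0.05, adjusted p = 0.0056, and fell by −0.77 ± 0.05, adjusted p = 1.23e-11, and −0.23 ± 0.05, adjusted p = 0.000554. Sema3e and Plxnd1 both fell with the 2-mutation hairpin, and with each of the others they moved in opposite directions. Nrp1 was at 78.7, 83.5, 88.0 and 90.2 CPM with the empty vector and at 62.7, 67.0, 69.4 and 73.9 with the unmutated hairpin. Nrp1 gave 46.8, 40.6, 48.6 and 49.6 CPM with the 2-mutation hairpin and 74.3, 75.1, 90.8 and 96.4 with the 5-mutation hairpin. Nrp1, the co-receptor of Sema3a, was below the empty vector with the unmutated and 2-mutation hairpins and overlapped it with the 5-mutation hairpin. It fell by −0.32 ± 0.08, adjusted p = 0.00476, and −0.87 ± 0.08, adjusted p = 4.39e-08, and gave −0.02 ± 0.08, adjusted p = 0.873. Nrp2, the co-receptor preferred by Sema3f, fell with the same hairpins, from 82.9 ± 7.50 to 51.7 ± 4.27 and 44.9 ± 6.11 CPM (−0.68 ± 0.10, adjusted p = 4.99e-05, and −0.88 ± 0.10, adjusted p = 1.05e-06). At 99.7 ± 11.7 CPM it was higher with the 5-mutation hairpin (0.26 ± 0.10, adjusted p = 0.0338), with overlapping libraries, and this call was lost without any 1 of empty vector libraries 1, 2 and 3 or 5-mutation libraries 2 and 4 (adjusted p = 0.0596 to 0.114).

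**Figure D4:**
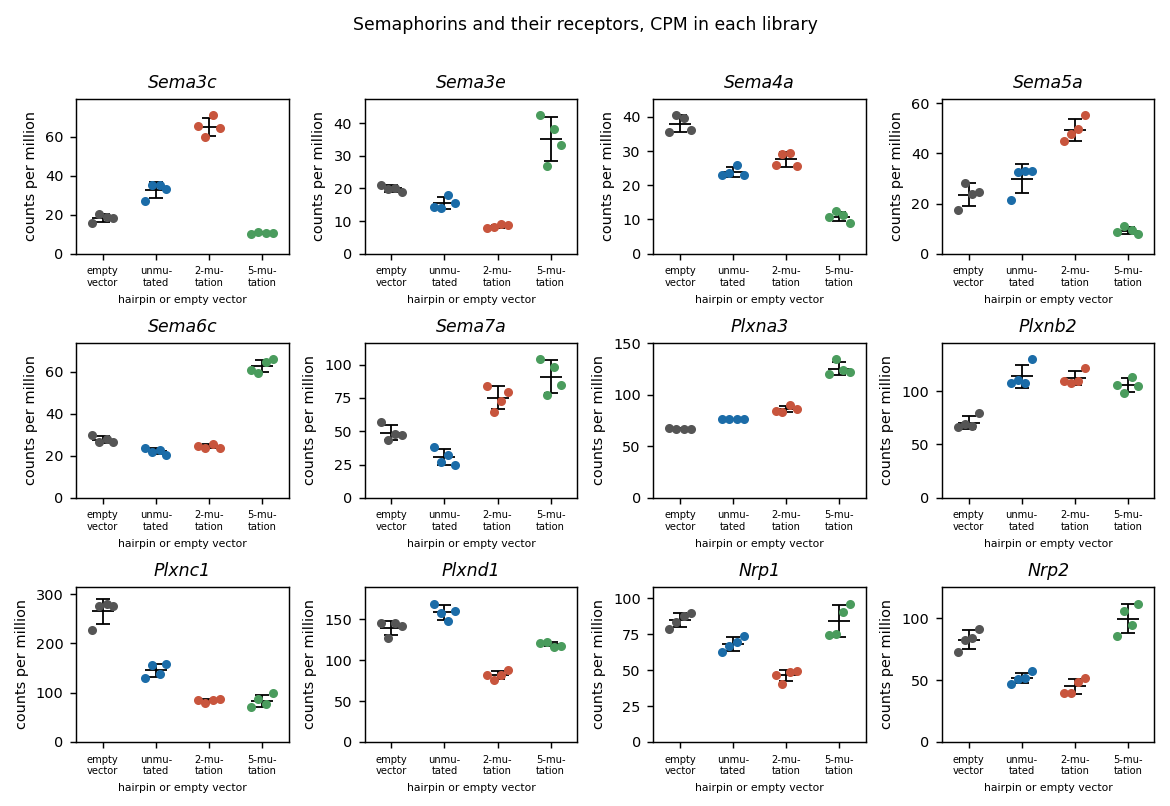
CPM (TMM-scaled, vertical axis from 0) of 6 semaphorins, 4 plexins and both neuropilins in each library (points), with the group mean and SD (bars, n = 4). Sema3c and Sema5a are highest with the 2-mutation and lowest with the 5-mutation hairpin, Sema3e has the reverse order, Plxnc1 is lower and Plxnb2 higher than the empty vector in all 12 hairpin libraries, and both neuropilins are lower with the unmutated and 2-mutation hairpins.

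Of the 5 ephrin-A ligands, 1 fell with the unmutated hairpin, 3 fell with the 2-mutation hairpin, and 2 rose and 2 fell with the 5-mutation hairpin. The largest of the 2-mutation falls was that of Efna1, 4.06-fold (−2.02 ± 0.28, adjusted p = 1.68e-06), without overlap of libraries. Efna1 was scarce, with 4 to 11 counts per library there. Efna3, at 21.4 FPKM, had the highest level of the 5. Efna3 was at 49.1, 51.1, 53.9 and 54.3 CPM with the empty vector and at 52.1, 50.0, 46.3 and 49.5 with the unmutated hairpin. Efna3 gave 45.4, 44.9, 45.7 and 45.4 CPM with the 2-mutation hairpin and 61.2, 57.3, 62.2 and 63.3 with the 5-mutation hairpin. The 2-mutation libraries were below and the 5-mutation libraries above those of the empty vector, by small amounts (−0.20 ± 0.05, adjusted p = 0.000522, and 0.23 ± 0.04, adjusted p = 0.000178). Efna4 was at 0.603, 0.595, 0.751 and 0.840 CPM with the empty vector and at 0.485, 0.468, 0.359 and 0.404 with the unmutated hairpin. Efna4 gave 0.576, 0.273, 0.565 and 0.387 CPM with the 2-mutation hairpin and 1.83, 1.63, 2.11 and 2.04 with the 5-mutation hairpin. Efna4, with 11 to 84 counts per library, was higher with the 5-mutation hairpin than in every other library, 2.69-fold over the empty vector (1.43 ± 0.21, adjusted p = 4.06e-06). Its lower values with the unmutated (−0.71 ± 0.24, adjusted p = 0.0225) and 2-mutation hairpins (−0.63 ± 0.24, adjusted p = 0.0238) passed the test. The first was lost without any 1 of empty vector libraries 3 and 4 or unmutated libraries 3 and 4 (adjusted p = 0.053 to 0.0751), the second without any 1 of empty vector libraries 3 and 4 or 2-mutation libraries 2 and 4 (0.0573 to 0.0909). Efna5, which repels retinal axons in the tectum, fell with the 5-mutation hairpin only, from 14.9 ± 1.54 to 9.82 ± 1.44 CPM (−0.61 ± 0.12, adjusted p = 0.000442), while the others gave 0.06 ± 0.12 and 0.17 ± 0.12.

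Of the 3 ephrin-B ligands, Efnb3 had the highest level of any member. Efnb3 was at 238, 245, 263 and 272 CPM with the empty vector and at 285, 284, 254 and 277 with the unmutated hairpin. Efnb3 gave 109.8, 94.7, 108 and 126 CPM with the 2-mutation hairpin and 216, 223, 242 and 248 with the 5-mutation hairpin. Efnb3 (ENSMUSG00000003934.5, chr11:69554092-69560205, minus strand) was lower with the 2-mutation hairpin than in every other library, falling 2.32-fold (−1.22 ± 0.07, adjusted p = 6.76e-12). The unmutated (0.11 ± 0.07, adjusted p = 0.215) and 5-mutation hairpins (−0.13 ± 0.07, adjusted p = 0.111) gave changes that did not pass. Efnb1 was at 31.4, 32.6, 36.5 and 33.6 CPM with the empty vector and at 26.8, 26.6, 23.9 and 28.2 with the unmutated hairpin. Efnb1 gave 52.2, 51.8, 53.6 and 54.5 CPM with the 2-mutation hairpin and 38.7, 36.0, 39.4 and 39.3 with the 5-mutation hairpin. Efnb1 (ENSMUSG00000031217.8, chrX:99136130-99148991, plus strand) had the reverse order between these groups: lowest with the unmutated hairpin (−0.35 ± 0.05, adjusted p = 1.94e-05) and highest with the 2-mutation hairpin (0.66 ± 0.05, adjusted p = 3.02e-10). With the 5-mutation hairpin it rose by 0.19 ± 0.05, adjusted p = 0.0041, with overlapping libraries. Efnb2, the third ephrin-B, rose with the unmutated (0.32 ± 0.05, adjusted p = 5.64e-06) and 5-mutation hairpins (0.24 ± 0.05, adjusted p = 0.000112) and fell with the 2-mutation hairpin (−0.30 ± 0.05, adjusted p = 6.97e-06).

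Among the 8 EphA receptors, 1 rose and 5 fell with the unmutated hairpin, 1 rose and 6 fell with the 2-mutation hairpin, and 4 rose and 2 fell with the 5-mutation hairpin. Epha4, which also binds ephrin-B ligands, had the highest level at 26.5 FPKM. Epha4 was at 227, 255, 259 and 246 CPM with the empty vector and at 174, 201, 199 and 212 with the unmutated hairpin. Epha4 gave 162, 144, 168 and 172 CPM with the 2-mutation hairpin and 219.7, 241, 261 and 275 with the 5-mutation hairpin. The unmutated and 2-mutation libraries lay below the empty vector (−0.33 ± 0.07, adjusted p = 0.00104, and −0.61 ± 0.07, adjusted p = 3.88e-07), and the 5-mutation libraries overlapped it (0.01 ± 0.07, adjusted p = 0.883). Epha3 was at 33.2, 29.5, 31.2 and 30.6 CPM with the empty vector and at 33.3, 34.8, 32.4 and 33.7 with the unmutated hairpin. Epha3 gave 61.6, 57.0, 61.7 and 60.3 CPM with the 2-mutation hairpin and 62.8, 57.0, 60.2 and 59.2 with the 5-mutation hairpin. Epha3 (ENSMUSG00000052504.7, chr16:63543534-63864175, minus strand) stood at nearly the same level with both mutated hairpins, above all libraries of the other groups. It rose 1.93-fold (0.95 ± 0.05, adjusted p = 4.66e-14) and 1.92-fold (0.94 ± 0.05, adjusted p = 1.06e-13), and gave 0.11 ± 0.05, adjusted p = 0.0647 with the unmutated hairpin.

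Epha6 was at 84.4, 74.1, 77.2 and 79.5 CPM with the empty vector and at 42.3, 42.9, 47.2 and 50.2 with the unmutated hairpin. Epha6 gave 46.7, 42.1, 44.2 and 48.4 CPM with the 2-mutation hairpin and 43.7, 52.0, 44.5 and 49.2 with the 5-mutation hairpin. Epha6 (ENSMUSG00000055540.15, chr16:59653483-60605531, minus strand) was lower in all 12 hairpin libraries than in any empty vector library, and the hairpin groups overlapped each other. Its falls were −0.79 ± 0.06, −0.80 ± 0.06 and −0.73 ± 0.06 (adjusted p = 2.15e-09, 3.43e-10 and 2.04e-09), and the differences between hairpins were 0.01 ± 0.06, −0.05 ± 0.06 and −0.06 ± 0.06, none past the test. Epha8 was at 30.9, 28.9, 27.7 and 28.4 CPM with the empty vector and at 15.0, 15.0, 15.3 and 16.4 with the unmutated hairpin. Epha8 gave 14.2, 15.4, 13.5 and 13.4 CPM with the 2-mutation hairpin and 31.3, 32.3, 31.9 and 33.0 with the 5-mutation hairpin. Epha8 was lower with the unmutated and 2-mutation hairpins by −0.91 ± 0.05, adjusted p = 1.55e-11, and −1.04 ± 0.05, adjusted p = 2.08e-13. It was slightly higher with the 5-mutation hairpin (0.15 ± 0.05, adjusted p = 0.0182), a call lost without empty vector library 3 or 4 (adjusted p = 0.0502 to 0.067). Epha10 was at 44.9, 40.6, 46.6 and 41.6 CPM with the empty vector and at 35.3, 32.2, 36.2 and 32.1 with the unmutated hairpin. Epha10 gave 13.6, 16.3, 16.4 and 14.5 CPM with the 2-mutation hairpin and 60.0, 55.7, 52.6 and 48.6 with the 5-mutation hairpin. Epha10, an Eph receptor without kinase activity, was lowest with the 2-mutation hairpin and highest with the 5-mutation hairpin, and no group overlapped another. It fell 2.86-fold with the 2-mutation hairpin (−1.52 ± 0.07, adjusted p = 6.58e-14), fell with the unmutated hairpin (−0.36 ± 0.07, adjusted p = 0.00025) and rose with the 5-mutation hairpin (0.32 ± 0.07, adjusted p = 0.000364).

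Epha2 was at 0.976, 0.715, 0.773 and 1.01 CPM with the empty vector and at 1.05, 1.10, 1.79 and 1.39 with the unmutated hairpin. Epha2 gave 0.640, 0.595, 0.565 and 0.902 CPM with the 2-mutation hairpin and 1.79, 0.922, 1.39 and 1.02 with the 5-mutation hairpin. Epha2 had 24 to 82 counts per library, and the unmutated libraries lay above all those of the empty vector and of the 2-mutation hairpin. Against the 2-mutation hairpin the difference was 0.97 ± 0.24, adjusted p = 0.00142. The higher values with the unmutated hairpin than with the empty vector passed the test too (0.62 ± 0.24, adjusted p = 0.0459), but not without any 1 of 8 libraries: empty vector libraries 1, 2 and 3, unmutated libraries 3 and 4, or 2-mutation libraries 1, 2 and 3 (adjusted p = 0.0508 to 0.181). Epha5 and Epha7, both receptors of ephrin-A ligands in cortical and retinal mapping, moved in opposite directions with the 5-mutation hairpin. Epha5 fell from 301 ± 16.4 to 220.0 ± 23.7 CPM (−0.45 ± 0.07, adjusted p = 8.67e-06) and Epha7 rose from 83.7 ± 3.41 to 120.1 ± 8.19 CPM (0.52 ± 0.06, adjusted p = 4.31e-08).

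Of the 5 EphB receptors 2 rose with the unmutated and 3 with the 5-mutation hairpin. Under the 2-mutation hairpin 1 rose and 2 fell. Ephb1 was at 21.6, 21.9, 20.5 and 20.2 CPM with the empty vector and at 39.1, 41.6, 35.5 and 39.5 with the unmutated hairpin. Ephb1 gave 39.8, 39.8, 38.9 and 40.5 CPM with the 2-mutation hairpin and 31.9, 35.4, 33.7 and 35.1 with the 5-mutation hairpin. Ephb1 (ENSMUSG00000032537.15, chr9:101922128-102354693, minus strand) was higher in all 12 hairpin libraries than in any empty vector library, by 0.89 ± 0.05, 0.92 ± 0.05 and 0.70 ± 0.05 (adjusted p = 8.84e-12, 6.31e-13 and 1.35e-10). Ephb2 was at 87.4, 81.7, 91.5 and 90.1 CPM with the empty vector and at 104, 93.6, 92.8 and 97.7 with the unmutated hairpin. Ephb2 gave 35.7, 30.5, 32.8 and 32.3 CPM with the 2-mutation hairpin and 119.8, 109, 122 and 117 with the 5-mutation hairpin. Ephb2 (ENSMUSG00000028664.14, chr4:136647539-136835988, minus strand), a receptor also known from excitatory synapses, was far below all other libraries with the 2-mutation hairpin. It fell 2.67-fold there (−1.42 ± 0.05, adjusted p = 9.77e-16) and rose with the 5-mutation hairpin (0.41 ± 0.05, adjusted p = 4.55e-07). The small rise with the unmutated hairpin (0.15 ± 0.05, adjusted p = 0.0273) was lost without any 1 of empty vector libraries 1 and 2 or unmutated libraries 1 and 4 (adjusted p = 0.0545 to 0.11). Ephb1 and Ephb2 thus moved in opposite directions with the 2-mutation hairpin, where the ligand Efnb3 fell as well. Ephb6 was at 59.1, 51.6, 50.2 and 54.7 CPM with the empty vector and at 51.3, 46.3, 51.1 and 47.5 with the unmutated hairpin. Ephb6 gave 64.1, 56.4, 60.2 and 57.2 CPM with the 2-mutation hairpin and 70.1, 61.2, 72.5 and 60.8 with the 5-mutation hairpin. Ephb6, which lacks kinase activity and had the highest EphB level at 15.1 FPKM, was above the empty vector with the 5-mutation hairpin (0.29 ± 0.06, adjusted p = 0.000405). The other hairpins gave −0.14 ± 0.06, adjusted p = 0.0938, and 0.14 ± 0.06, adjusted p = 0.055. Ephb4, at 0.334 FPKM, had no call in any comparison.

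**Figure D5:**
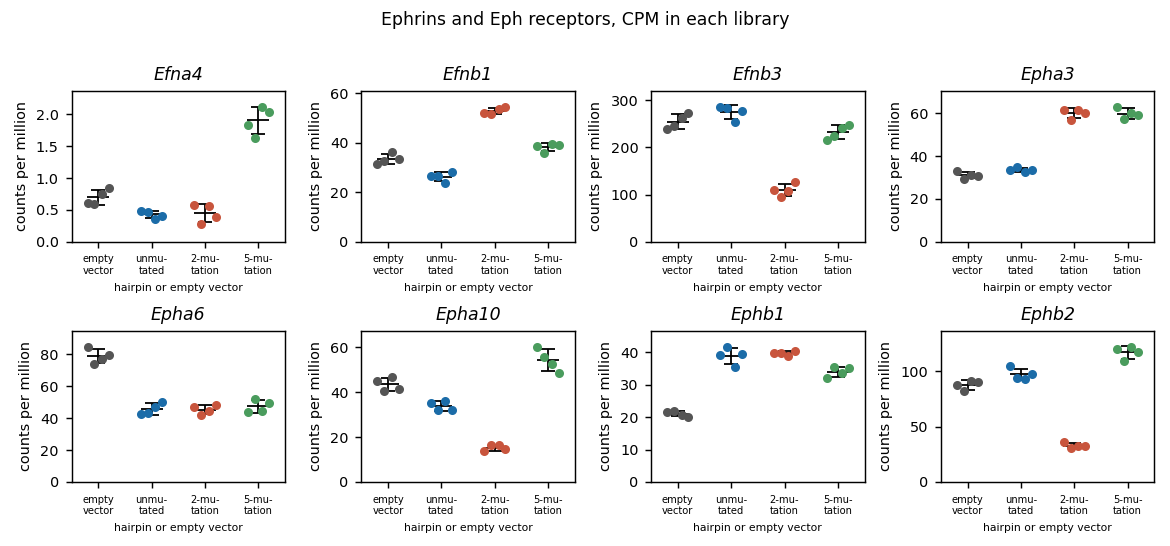
CPM (TMM-scaled, vertical axis from 0) of 3 ephrins and 5 Eph receptors in each library (points), with the group mean and SD (bars, n = 4). Efnb3, Epha10 and Ephb2 are lowest with the 2-mutation hairpin, Epha3 is high with both mutated hairpins, Epha6 is lower and Ephb1 higher than the empty vector in all 12 hairpin libraries, and Efna4 is high with the 5-mutation hairpin.

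Netrin transcripts were scarce, with Ntn3 at 1.87, Ntn4 at 1.15 and Ntn1 at 0.804 FPKM. All 3 fell with the 2-mutation hairpin, where 30.8% of all genes fell. Ntn3 was at 8.15, 8.40, 8.21 and 8.35 CPM with the empty vector and at 12.4, 12.4, 13.2 and 15.4 with the unmutated hairpin. Ntn3 gave 3.93, 4.12, 4.45 and 4.30 CPM with the 2-mutation hairpin and 13.2, 12.0, 12.6 and 11.6 with the 5-mutation hairpin. Ntn3 was above the empty vector with the unmutated and 5-mutation hairpins and below it with the 2-mutation hairpin. The rises were 0.69 ± 0.07, adjusted p = 1.65e-07, and 0.58 ± 0.07, adjusted p = 7.95e-07, and the fall was −0.98 ± 0.08, adjusted p = 4.59e-10. Ntn3 shares exon sequence with Tbc1d24 on its own strand and with BC028777 on the other, so its counts are uncertain. Ntn4 was at 6.69, 8.75, 7.09 and 6.57 CPM with the empty vector and at 4.31, 5.66, 3.12 and 6.03 with the unmutated hairpin. Ntn4 gave 1.98, 1.94, 2.02 and 2.53 CPM with the 2-mutation hairpin and 3.20, 2.20, 3.59 and 3.36 with the 5-mutation hairpin. Ntn4, a netrin related to laminin beta chains, was lower in every hairpin library than in every empty vector library. It fell by −0.60 ± 0.17, adjusted p = 0.00843, −1.77 ± 0.18, adjusted p = 3.43e-08, and −1.24 ± 0.18, adjusted p = 4.83e-06 with the unmutated, 2-mutation and 5-mutation hairpins. Ntn1, the classical attractant of Dcc-bearing axons, fell from 5.82 ± 1.69 to 2.96 ± 0.684 CPM with the 2-mutation hairpin (−0.97 ± 0.28, adjusted p = 0.00611). Its values with the unmutated (0.42 ± 0.26, adjusted p = 0.228) and 5-mutation hairpins (−0.65 ± 0.27, adjusted p = 0.0531) did not pass.

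Netrin receptors were more abundant than netrins. Of the 5, 1 rose and 3 fell with the unmutated hairpin, 3 rose and 2 fell with the 2-mutation hairpin, and 2 rose and 3 fell with the 5-mutation hairpin. Unc5a, a receptor of netrin repulsion, had the highest level at 25.8 FPKM. Unc5a was at 90.1, 82.9, 91.9 and 87.8 CPM with the empty vector and at 86.8, 82.4, 85.0 and 86.0 with the unmutated hairpin. Unc5a gave 136, 129, 131 and 141 CPM with the 2-mutation hairpin and 114, 114, 130.2 and 133 with the 5-mutation hairpin. Both mutated hairpins raised it above all empty vector and unmutated libraries (0.61 ± 0.05, adjusted p = 6.98e-10, and 0.48 ± 0.05, adjusted p = 4.78e-08), while the unmutated hairpin gave −0.05 ± 0.05, adjusted p = 0.452. Dcc, chosen for its place as the main netrin receptor, also rose with both mutated hairpins but, unlike Unc5a, fell with the unmutated one. Its mean was 92.3 ± 5.47 CPM in the empty vector libraries, 65.8 ± 9.02 in the unmutated, 118 ± 11.0 in the 2-mutation and 116 ± 7.42 in the 5-mutation libraries. Dcc fell with the unmutated hairpin (−0.49 ± 0.09, adjusted p = 0.000162) and rose with the mutated ones (0.35 ± 0.08, adjusted p = 0.00138, and 0.33 ± 0.08, adjusted p = 0.00248), without overlap of libraries. Unc5d, the highest of the other Unc5 receptors at 11.1 FPKM and a receptor of Flrt proteins too, fell with all 3 hairpins, from 154 ± 8.64 to 122 ± 18.2, 69.2 ± 6.15 and 65.2 ± 6.70 CPM. Unc5b fell 2.14-fold with the 5-mutation hairpin (−1.09 ± 0.07, adjusted p = 6.34e-11), and Unc5c rose with the 2-mutation hairpin (0.63 ± 0.07, adjusted p = 5.11e-07). Unc50 was at 25.8, 28.5, 27.3 and 27.1 CPM with the empty vector and at 32.7, 30.6, 30.0 and 31.2 with the unmutated hairpin. Unc50 gave 39.9, 38.2, 37.7 and 39.8 CPM with the 2-mutation hairpin and 26.0, 24.3, 25.4 and 25.9 with the 5-mutation hairpin. Unc50, which belongs to none of these systems, rose with the unmutated (0.20 ± 0.05, adjusted p = 0.00153) and 2-mutation hairpins (0.52 ± 0.05, adjusted p = 1.37e-09) and gave −0.10 ± 0.05, adjusted p = 0.0714 with the 5-mutation hairpin.

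Across the families, 63 of 66 members (95.5%) were called with at least 1 hairpin and 31 (47.0%) with all 3. Of all genes tested 81.1% were called with at least 1 and 22.5% with all 3, and of protein-coding genes 91% and 28.2%. The same direction with all 3 hairpins was found for 3 members that rose (Ephb1, Plxna3, Plxnb2) and 8 that fell (Epha6, Ntn4, Plxnc1, Sema4a, Sema4g, Sema6b, Slit3 and Unc5d), each against the same 4 empty vector libraries. These are 4.55% and 12.1% of the members, where all genes gave 5.65% and 5.85% and protein-coding genes 7.08% and 7.01%. A further 24 members (36.4%) were called higher with one hairpin and lower with another, as were 22.7% of all genes and 28.5% of protein-coding genes. Ephb4, Plxna4 and Sema5b were called in none of the 6 comparisons (4.55%, against 13.2% of all genes and 5.40% of protein-coding genes). By group means, 23 members were highest with the 5-mutation hairpin, 15 with the empty vector and 14 with each of the others. The lowest mean was with the 2-mutation hairpin for 24 members, the 5-mutation hairpin for 20, the unmutated hairpin for 16 and the empty vector for 6. Leaving out a single library ended 33 of the members' calls, 18 of them between hairpins. Of the members' calls against the empty vector, 15 in 13 members were lost when a single library was left out. Besides Efna4, Epha2, Epha8, Ephb2 and Nrp2 they were calls close to the threshold. For Epha7 and the unmutated hairpin (−0.16 ± 0.06, adjusted p = 0.0292) the call was lost without any 1 of empty vector libraries 2 and 4 or unmutated libraries 1 and 4 (adjusted p = 0.0637 to 0.128). For Sema3f and the unmutated hairpin (−0.24 ± 0.09, adjusted p = 0.0304) the call was lost without any 1 of empty vector libraries 1 and 2 or unmutated libraries 3 and 4 (adjusted p = 0.0711 to 0.116). For Sema3g and the unmutated hairpin (−1.19 ± 0.42, adjusted p = 0.0259) the call was lost without any 1 of empty vector libraries 1 and 3 or unmutated libraries 2 and 4 (adjusted p = 0.0622 to 0.0837). The count rule also favoured this Sema3g call, as described above. For Sema4b and the unmutated hairpin (0.18 ± 0.07, adjusted p = 0.0497) the call was lost without any 1 of empty vector libraries 1, 2 and 3, unmutated libraries 1, 2 and 4, 2-mutation libraries 1 and 3 or 5-mutation libraries 3 and 4 (adjusted p = 0.0507 to 0.202). For Unc5c and the unmutated hairpin (−0.23 ± 0.08, adjusted p = 0.0182) the call was lost without any 1 of empty vector library 3 or unmutated libraries 1 and 2 (adjusted p = 0.0585 to 0.0656). For Ephb3 and the 2-mutation hairpin (−0.55 ± 0.20, adjusted p = 0.0259) the call was lost without any 1 of empty vector libraries 1 and 4 or 2-mutation libraries 1 and 2 (adjusted p = 0.0502 to 0.0752). For Sema3b and the 2-mutation hairpin (0.56 ± 0.23, adjusted p = 0.0418) the call was lost without any 1 of empty vector libraries 1 and 4 or 2-mutation libraries 1, 2, 3 and 4 (adjusted p = 0.0622 to 0.143). For Unc5b it was lost with the unmutated hairpin (0.21 ± 0.07, adjusted p = 0.0216) without any 1 of empty vector libraries 1 and 2 or unmutated library 4 (adjusted p = 0.0604 to 0.0868), and with the 2-mutation hairpin (−0.18 ± 0.07, adjusted p = 0.0366) without any 1 of empty vector libraries 3 and 4 or 2-mutation library 2 (adjusted p = 0.0796 to 0.136).

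Other genes of the pathway outside the symbol rule were followed in 2 lists. Of 36 other cues, co-receptors and adhesion partners, 4 rose and 21 fell with the unmutated hairpin, 7 rose and 25 fell with the 2-mutation hairpin, and 10 rose and 21 fell with the 5-mutation hairpin. The shares that rose were 11.1%, 19.4% and 27.8% (20.8%, 32.5% and 28.4% of all genes), and those that fell 58.3%, 69.4% and 58.3% (19.5%, 30.8% and 26.5%). Their median log2 fold changes were −0.21, −0.37 and −0.26, where those of all genes were 0.01, −0.01 and 0.03. With the smallest p of the list, Ptprf, a receptor phosphatase, fell with the unmutated hairpin (−0.93 ± 0.05, adjusted p = 7.31e-13). Cntn2 and Cntn1, contactins of axon surfaces, fell with it too (−0.68 ± 0.05 and −0.68 ± 0.06). With the 2-mutation hairpin Lrrc4, a netrin-G ligand, fell (−1.32 ± 0.05, adjusted p = 2.33e-15) and Celsr3, an atypical cadherin needed for forebrain axon tracts, rose (0.85 ± 0.04, adjusted p = 1.79e-14). Flrt1 and Rtn4r, the Nogo receptor, fell (−0.88 ± 0.05 and −0.97 ± 0.06). With the 5-mutation hairpin Cntn1 (−1.26 ± 0.06), Sdc3 (−0.89 ± 0.05) and Lrrc4c (−1.07 ± 0.07) fell and Ntng2, a netrin-G, rose (0.78 ± 0.06).

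The 52 intracellular effectors that carry guidance signals to the cytoskeleton were more evenly split. Counts of risen and fallen genes were 10 and 16 with the unmutated hairpin, 17 and 20 with the 2-mutation hairpin, and 19 and 16 with the 5-mutation hairpin, with medians of −0.05, −0.04 and 0.02. In the same order 19.2%, 32.7% and 36.5% of the list rose and 30.8%, 38.5% and 30.8% fell, beside the shares of all genes just given. Rac1, the small GTPase downstream of plexins, Dcc and Eph receptors, fell with the 2-mutation hairpin by −2.72 ± 0.05 (adjusted p = 2.04e-21), and with the 5-mutation hairpin by −0.81 ± 0.04 (adjusted p = 5.22e-13). Cfl1, the actin-severing protein cofilin, fell with the 5-mutation hairpin by −1.66 ± 0.06 (adjusted p = 8.83e-16). Vav2, an exchange factor for Rac1 used by Eph receptors, fell with the 2-mutation hairpin (−1.53 ± 0.05), as did the kinase gene Gsk3b (−1.21 ± 0.05) and the adaptor gene Dab1 of the Reelin pathway (−1.26 ± 0.04). Dab1 fell with the 5-mutation hairpin as well (−0.88 ± 0.04), as did Arhgef12, an exchange factor of plexin-B signalling (−1.03 ± 0.04). For the unmutated hairpin, Srgap3, of the Slit-Robo GTPase-activating proteins, fell (−0.71 ± 0.05), as did Chn2, a chimaerin (−1.16 ± 0.08), and Dpysl3, a collapsin response mediator (−0.66 ± 0.06), while the GTPase gene Rap1b rose (0.58 ± 0.05). Between hairpins, 18 and 19 genes of the lists of 36 and 52 were higher and 13 and 30 lower with the unmutated than with the 2-mutation hairpin. The counts were 12 and 18 higher and 14 and 23 lower against the 5-mutation hairpin, and 10 and 20 higher and 16 and 26 lower for the 2-mutation against the 5-mutation hairpin. In these comparisons 50.0%, 33.3% and 27.8% of the 36 and 36.5%, 34.6% and 38.5% of the 52 were higher (31.2%, 26.8% and 32.3% of all genes). Lower were 36.1%, 38.9% and 44.4% of the 36 and 57.7%, 44.2% and 50.0% of the 52 (31.5%, 28.5% and 33.6%).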

How the data were processed

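RNA was measured in 16 libraries of mouse primary forebrain neuronal cultures. Per the labels' protocols, total RNA was depleted of ribosomal RNA and made into directional libraries with dUTP. Per the submitters' processing notes, the tools were STAR 2.7.2b, cutadapt 1.15, Trim Galore 0.6.0, bcl2fastq 2.20.0.422, edgeR and featureCounts, and the build GRCm38.p6. The file deposited by the authors holds raw counts per gene. The strand setting and the treatment of multiply matched reads are not given in the sources used here. Symbols, positions and exon lengths came from GENCODE vM21 (54587 of 55335 IDs matched with their version, 567 without it, 181 not at all).

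Genes passing filterByExpr (19479) were scaled with TMM and fitted by edgeR 4.0.16 quasi-likelihood with robust dispersion (R 4.3.3), 1 coefficient per group and all 16 libraries in the model. Contrasts of every pair of groups were 2-sided, adjusted by Benjamini-Hochberg over all genes, and called at an adjusted p below 0.05. Standard errors are the log2 fold change divided by the root of F. The fit was also run on simulated counts drawn independently for each library, which cannot show dependence between the real libraries. Chi-square over its degrees of freedom was 3.46 to 24.2 between replicates, above counting noise.

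The members, the lists of other genes and the rules were chosen with earlier results of these data known. Values in every library are given for 40 members. These are, among called members with a mean of at least 1 CPM and no overlap between the groups, up to 6 in each direction per comparison with the empty vector and up to 3 per comparison between hairpins. They also include up to 6 with a shared direction with all 3 hairpins and up to 6 with opposite directions, and the member with the highest level of each family. Members named beside a pair or a small count were added. For the lists, up to 4 genes with the smallest p were eligible. Alternatives were DESeq2 1.42.0 (its size factors, and its Wald test), other filters, protein-coding genes only, leaving out Gm26917 and Gm42418, fits of the 2 groups compared, a replicate block, and leaving out each library. Seed matches and plots used Python 3.11.15, pandas 2.3.3, numpy 2.4.6 and matplotlib 3.10.9.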

Additional observations from a re-analysis of the deposited data

Results flagged for a closer look

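Within the 4 groups, the 40 members with values in every library gave 160 group values, and in 10 of them 1 library lay far from the other 3 relative to the group's range; about 1 in 20 would do so by chance. With the empty vector, library 1 was low for Plxnc1 (227 CPM, the nearest other library 276) and for Slit2 (70.7 CPM, nearest 80.1). With the unmutated hairpin, library 1 was low for Sema3d (2.96 CPM, nearest 4.74) and for Sema5a (21.4 CPM, nearest 32.6). Library 3 of that group was high for Robo2 (94.0 CPM, nearest 73.7) and library 4 for Plxnb2 (129.8 CPM, nearest 110.3). With the 2-mutation hairpin, library 4 was high for Ntn4 (2.53 CPM, nearest 2.02) and Plxnb2 (122 CPM, nearest 109.7), and library 2 was low for Plxna1 (359 CPM, nearest 405). With the 5-mutation hairpin, library 2 was high for Robo2 (194 CPM, nearest 173).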

How the results depend on the processing

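The counts of called members stayed within 1.5 times their main values under the alternatives run. Leaving out 1 library at a time gave 10 to 15 members higher and 25 to 29 lower with the unmutated hairpin than with the empty vector, 16 to 18 and 31 to 35 with the 2-mutation hairpin, and 25 to 28 and 20 to 22 with the 5-mutation hairpin. Between hairpins the ranges were 25 to 27 and 20 to 22 (unmutated against 2-mutation), 19 to 22 and 28 to 30 (unmutated against 5-mutation), and 16 to 21 and 29 to 33 (2-mutation against 5-mutation). The other 8 alternatives gave 11 to 19 and 27 to 31, 16 to 18 and 33 to 37, and 26 to 28 and 20 to 23 against the empty vector. They gave 25 to 28 and 19 to 23, 20 to 21 and 29 to 31, and 18 to 21 and 30 to 34 between hairpins. The replicate block gave 19 and 30, 18 and 34, and 28 and 21 members against the empty vector, and 28 and 23, 21 and 31, and 21 and 34 between hairpins; it ended no call and added 17. The labels do not say whether libraries with the same number belong together. Of 24 same-number pairs of libraries, 12 had a correlation of their deviations from the group means above 0.1 (range −0.0215 to 0.272). Pairs with different numbers ranged from −0.349 to 0.296. For 11 of 16 libraries the best match in another group carried the same number, a hint from the data and not from the design. Fits of only 2 groups gave no value for Sema3g in 4 comparisons, where it failed their expression filter. Depth limits Sema3g, with 1 to 17 counts per library.

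None of the 291 called differences of members changed sign under the alternatives run. Of 105 that were not called, 36 changed sign, 26 of them only when 1 library was left out, and none was called with the changed sign; the cause was not tested. Over the fits without 1 library their log2 fold changes were as follows. For the unmutated hairpin against the empty vector, the range was −0.11 to 0.055 for Sema3a, −0.25 to 0.11 for Sema5b, −0.069 to 0.25 for Sema3b, −0.34 to 0.041 for Ephb3, −0.024 to 0.084 for Plxna4, −0.053 to 0.17 for Efna5 and −0.0087 to 0.091 for Epha5. For the 2-mutation hairpin against the empty vector, the range was −0.036 to 0.033 for Plxna4, −0.057 to 0.023 for Plxna1 and −0.019 to 0.023 for Plxna2. For the 5-mutation hairpin against the empty vector, the range was −0.036 to 0.071 for Epha4, −0.16 to 0.12 for Sema3b, −0.26 to 0.057 for Sema5b, −0.049 to 0.010 for Sema4d, −0.075 to 0.0069 for Sema6d and −0.090 to 0.038 for Nrp1. For the unmutated against the 2-mutation hairpin, the range was −0.038 to 0.044 for Epha6, −0.079 to 0.13 for Sema3d, −0.063 to 0.012 for Ephb1, −0.0035 to 0.027 for Sema6b, −0.22 to 0.0028 for Efna5, −0.25 to 0.066 for Efna4, −0.0095 to 0.099 for Plxna4, −0.043 to 0.067 for Plxnb2, −0.67 to 0.067 for Sema3g and −0.34 to 0.032 for Ephb4. For the unmutated against the 5-mutation hairpin, the range was −0.091 to 0.21 for Sema5b, −0.0074 to 0.13 for Unc5c, −0.11 to 0.27 for Epha2 and −0.083 to 0.28 for Sema3b. For the 2-mutation against the 5-mutation hairpin, the range was −0.012 to 0.066 for Plxna4, −0.059 to 0.097 for Plxnc1, −0.015 to 0.036 for Epha3, −0.026 to 0.079 for Dcc, −0.0029 to 0.054 for Sema4g and −0.051 to 0.018 for Sema6d. DESeq2 size factors gave −0.0055 for Epha4, −0.0048 for Sema3b and −0.00023 for Epha6. Protein-coding genes alone gave −0.00084 for Epha4, −0.0026 for Sema3b, 0.033 for Sema3d, 0.016 for Ephb1, −0.028 for Plxna4, −0.037 for Plxnc1, −0.037 for Epha3, −0.031 for Dcc and −0.015 for Sema4g. Leaving out Gm26917 and Gm42418 gave −0.0027 for Epha4, −0.0018 for Sema3b, 0.012 for Sema3d, −0.0019 for Plxna4, −0.0096 for Plxnc1, −0.011 for Epha3 and −0.0030 for Dcc. Fits of only the 2 groups gave 0.021 for Sema3d and 0.0050 for Ephb1. The DESeq2 Wald test gave −0.0053 for Epha4, −0.0058 for Sema3b and −0.00012 for Epha6. In these sentences Epha4 and Sema3b are the 5-mutation hairpin against the empty vector, Epha6, Sema3d and Ephb1 the unmutated against the 2-mutation hairpin, and the others the 2-mutation against the 5-mutation hairpin.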
